A study of Mus musculus with 6 samples.

Results

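The Wnt ligands, their Frizzled and LRP receptors, their secreted antagonists and the pathway's own readout genes were followed in whole brains of mice with an activated human SRY transgene. Members were the probes whose gene symbol began with Wnt, Fzd, Sfrp1 to Sfrp5, Dkk1 to Dkk4, Dkkl, Axin1 or Axin2, or was Lef1, Tcf7, Lrp5, Lrp6 or Wif1. This took 61 probes of 43 gene symbols from a table of 25697 probes under 18138 symbols. All samples were whole brains of male FVB mice at postnatal day 6, read on MouseRef-8 v2.0 arrays of Illumina, where beads coated with a probe light up in proportion to the RNA they capture. The 3 hSRY-OFF mice carried the Signalox-hSRY transgene in its unrecombined form, in which the CAG promoter, active in most cell types, drives the red fluorescent protein DsRed2 from a cassette flanked by loxP sites. The 3 hSRY-ON mice carried the same insertion at the H11 locus with the cassette removed, so that the promoter drives FLAG-tagged human SRY together with the green fluorescent protein EGFP. Recombination was brought about in the early embryo by Cre from the oocyte of a Ddx4-Cre mother, and the hSRY-ON mice profiled had not inherited the Ddx4-Cre gene. Both groups thus kept the mouse's own Y chromosome and the insertion, and differed in the reporter as well as in SRY. The paper calls the profiled controls age-matched and does not state the parents of the hSRY-OFF mice. A difference of mother or litter could therefore not be told apart from these. The study describes the samples as biological triplicates.

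Wnts are lipid-modified secreted proteins that bind a Frizzled receptor and, in the branch that acts through beta-catenin, an LRP5 or LRP6 co-receptor. Stabilized beta-catenin joins TCF and LEF factors at target genes such as Axin2, whose product feeds back to limit the signal, while other Frizzled branches guide axons and orient cells. In the developing brain the pathway patterns the neural tube, controls the division of neural precursors and builds the blood-brain barrier. In the gonad, by contrast, Sry starts a program that opposes Wnt4 and beta-catenin. Whether transcripts of the pathway differ in the brains of these mice was therefore asked family by family. SRY was expressed in other organs as well as in the brain. The paper reports that hSRY-ON pups suckled little, lacked milk in the stomach, grew slowly and had smaller brains. The part of this state in the values below was not tested.

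The arrays were alike in brightness, with median intensities of 200 to 220, and 14078 ± 227 (SD, n = 3) probes were detected in hSRY-OFF against 14144 ± 209 (SD, n = 3) in hSRY-ON. A probe counts as detected on an array at a detection p-value under 0.05, that is, when it is brighter than nearly all negative-control beads. Detection is a limit of the probe as well as of the transcript, since the probes for the abundant neuronal genes Snap25 and Nefl were also below background on all 6 arrays. In whole tissue, fewer cells of a type and less RNA per cell cannot be told apart. Over all tested probes the calls rested on nearly every array. Leaving out any array but hSRY-ON 3 left 0 or 1 probe past the threshold, and leaving out hSRY-ON 3 left 417.

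Detection differed widely between the families. Of the 61 member probes, 24 were detected on all 6 arrays, 14 on some and 23 on none. The Frizzled receptors were the best covered large family, with 8 of 12 probes detected on every array, against 8 of 28 for the Wnt ligands and 5 of 9 for the Dkk family. Below background by every probe on every array were 9 of the 19 Wnt genes (Wnt1, Wnt2, Wnt3a, Wnt8a, Wnt8b, Wnt9a, Wnt10a, Wnt10b and Wnt11), the receptors Fzd1 and Fzd4, and the antagonists Sfrp4, Sfrp5, Dkk2 and Dkk4. Fzd4, the receptor for the vascular ligand norrin, had 2 probes and neither was detected.

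The number of member probes detected on an array was 34, 36 and 30 in hSRY-OFF and 30, 32 and 27 in hSRY-ON. The groups overlapped, and the means of 33.3 ± 3.06 (SD, n = 3) and 29.7 ± 2.52 (SD, n = 3) differed by -3.67, little more than the spread between replicates. Most of this difference came from the Dkk family, with 6, 7 and 6 probes in hSRY-OFF and 5 on each hSRY-ON array, and from the TCF and LEF factors. At a detection p-value under 0.01 both families had equal means in the groups (4.33 and 0.333 probes), and the difference of -2.67 lay in the Wnt ligands (9.33 against 8), the Frizzled receptors (7.67 against 6.67) and the LRP co-receptors (1 against 0.667).

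**Figure D1:**
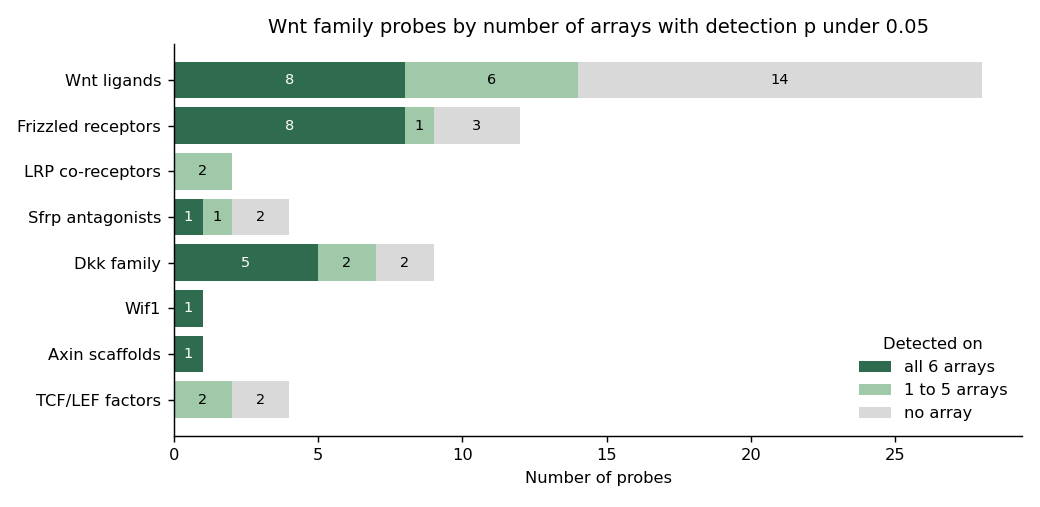
Number of member probes (x axis) in each family (y axis), split by shade into probes detected on all 6 arrays, on 1 to 5 arrays and on no array at a detection p-value under 0.05. Frizzled receptors had 8 of 12 probes detected on all arrays, whereas 14 of 28 Wnt probes were detected on none.

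A probe entered the test if 3 or more of the 6 arrays detected it, which kept 33 member probes of 24 genes among 14215 probes in all. Each tested member probe was detected on at least 1 array of each group, but Wnt6 and Lef1, detected on 3 hSRY-OFF arrays and 1 hSRY-ON array, met the filter through the group where they were higher. Signals were corrected for background, quantile normalized and put on the log2 scale, and differences below are log2 fold changes of hSRY-ON minus hSRY-OFF from a limma fit over all tested probes, with Benjamini-Hochberg adjusted p-values. A probe was called where the adjusted p was under 0.05. At this threshold 1 member probe fell, that of Fzd3, and none rose. Among all tested probes 1.32% were called lower and 0.844% higher, 2.17% in all, so that 1 of 33 members (3.03%) lay near the background. At an unadjusted p under 0.05 there were 6 member probes (18.2%), against 20.9% of all tested probes. They belonged to Wnt6, Wnt7a, Fzd2, Fzd3, Dkkl1 and Axin2, and all 6 were lower in hSRY-ON, a direction in which 10.9% of all tested probes passed this limit. Wnt6 is among them although it met the filter through hSRY-OFF.

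The 3 hSRY-ON values lay wholly below the 3 hSRY-OFF values for 6 member probes (18.2%), against 14.2% of all tested probes, and wholly above for none, against 13.5%. The median log2 fold change over the members was -0.05, against 0.0048 over all tested probes. It moved to -0.147 without hSRY-OFF array 3, to -0.104 without hSRY-ON array 1 and to -0.0144 over all 61 probes with no filter. Of the log2 fold changes, 21 of the 33 (63.6%) were below 0, against 48.9% of all. By family the median was -0.23 for the Frizzled receptors (9 probes), -0.02 for the Wnt ligands (13 probes) and 0.04 for the secreted antagonists (8 probes). That of the Wnt ligands ranged from -0.0628 without hSRY-OFF array 3 to -0.00324 without hSRY-OFF array 2, where 6 probes were below 0 and 6 above. These shares describe the list and are not a test of it, and several genes enter with more than 1 probe.

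**Figure D2:**
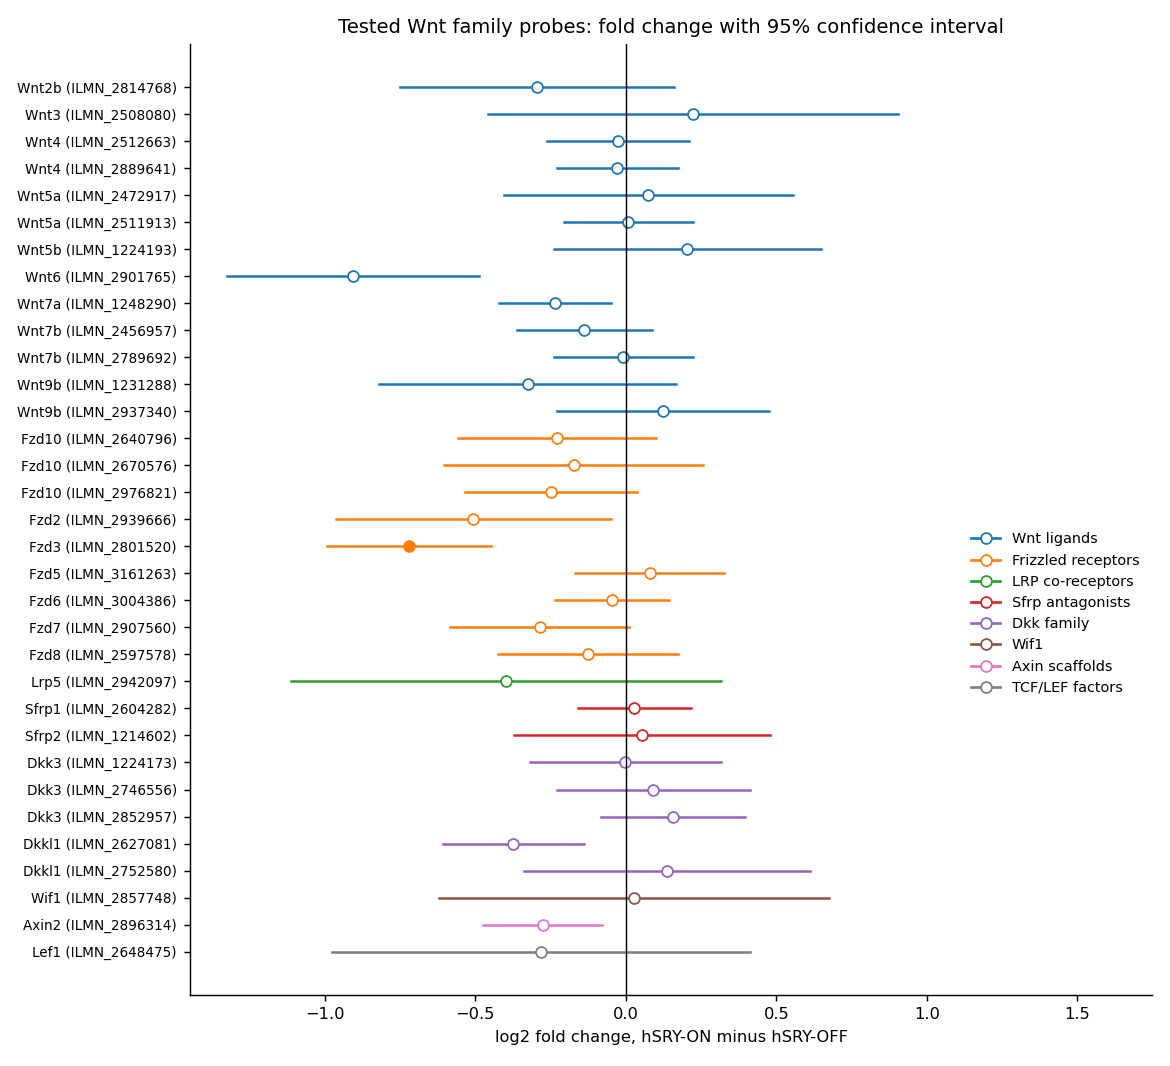
Log2 fold change, hSRY-ON minus hSRY-OFF (x axis), of the 33 tested member probes (y axis, by family in color), with points at the fitted value, lines for the 95% confidence interval and a filled point for the probe that passed an adjusted p under 0.05. Fzd3 is the filled point, and 8 of the 9 Frizzled probes lie to the left of 0.

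The Frizzled receptors held the called change. Fzd3, a receptor that guides axon tracts in the forebrain through the planar polarity branch, had normalized log2 signals of 6.80, 6.999 and 6.73 in hSRY-OFF and of 6.16, 5.94 and 6.25 in hSRY-ON (probe ILMN_2801520). Every hSRY-ON array was below every hSRY-OFF array, and the probe was detected on all 6. Fzd3 fell by 0.72 on the log2 scale (SE 0.12, 95% confidence interval -0.99 to -0.45, adjusted p = 0.0348 from limma), a 1.65-fold difference. This was a dim probe, with deposited intensities of 282, 275.7 and 251 in hSRY-OFF and 224.4, 204.8 and 223 in hSRY-ON, where the array medians were 200 to 220. The fold therefore depends on the background that is subtracted, and was -0.27 on the log2 scale with no background correction, still past the threshold. The call was lost when any array but hSRY-ON 3 was left out (adjusted p 0.0768 to 0.115), although the direction held and the unadjusted p stayed between 0.000620 and 0.00163. It was also lost with no filter on dim probes (adjusted p = 0.0548) and with the replicate number as a block (adjusted p = 0.110). The stricter filter left the probe untested.

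Fzd2 and Fzd7, closely related receptors that serve both the beta-catenin and the other branches, had lower means in hSRY-ON without passing the threshold. Fzd2 (ILMN_2939666) had log2 signals of 7.89, 7.84 and 7.62 in hSRY-OFF and of 7.25, 7.67 and 6.89 in hSRY-ON. The groups overlapped through the second hSRY-ON array, and the log2 fold change was -0.51 (SE 0.19, 95% confidence interval -0.96 to -0.05, adjusted p = 0.199 from limma). Without hSRY-ON array 3, the lowest of the 6, it was -0.32, and without hSRY-ON array 2 it was -0.71. With no background correction it was -0.27. Fzd7 (ILMN_2907560) had log2 signals of 8.48, 8.71 and 8.39 against 8.34, 8.33 and 8.04. Here the groups did not overlap, by a narrow margin, and the log2 fold change was -0.29 (SE 0.13, 95% confidence interval -0.58 to 0.01, adjusted p = 0.251 from limma), or -0.19 without hSRY-ON array 3.

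The other Frizzled receptors differed less between the groups. The 3 probes of Fzd10, a receptor of the beta-catenin branch, had log2 fold changes of -0.25, -0.23 and -0.17 (adjusted p 0.291 to 0.634), alike in sign. Fzd8 was at -0.13 (adjusted p = 0.618), Fzd6, a planar polarity receptor, at -0.05 (adjusted p = 0.789) and Fzd5 at 0.08 (adjusted p = 0.711). In all, 8 of 9 tested Frizzled probes were below 0, a count that was the same under median scaling and cyclic loess, with family medians of -0.23 under both. The median was closer to 0 with no background correction (-0.0745) or normexp on the signals (-0.125), and ranged from -0.339 without hSRY-OFF array 3 to -0.143 without hSRY-ON array 3. The 95% confidence intervals of Fzd5 (-0.17 to 0.33) and Fzd6 (-0.23 to 0.14) allow a difference in either direction up to these bounds.

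Wnt6, a ligand of the beta-catenin branch, was detected mainly in hSRY-OFF. Its log2 signals were 5.999, 5.94 and 6.32 in hSRY-OFF and 5.10, 4.90 and 5.53 in hSRY-ON (ILMN_2901765). The groups did not overlap, and the probe was detected on all 3 hSRY-OFF arrays but on hSRY-ON array 3 alone. The log2 fold change of -0.91 (SE 0.18, 95% confidence interval -1.33 to -0.49) did not pass (adjusted p = 0.0527 from limma, 0.0146 to 0.147 over 14 alternatives). Since 2 of the 3 hSRY-ON values were not above background and the probe met the filter through hSRY-OFF, these figures describe a probe near its detection limit, and the fold was -0.26 with no background correction.

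Wnt7a and Wnt7b, which act on endothelial cells to form the blood-brain barrier and also on neurons, were measured well above background. Wnt7a (ILMN_1248290) had log2 signals of 9.70, 9.62 and 9.56 in hSRY-OFF and of 9.33, 9.40 and 9.44 in hSRY-ON. All 3 hSRY-ON arrays were lower, but the log2 fold change of -0.24 (SE 0.08, 95% confidence interval -0.42 to -0.05) did not pass (adjusted p = 0.156 from limma). Wnt7b had log2 signals of 10.13, 10.18 and 10.05 against 10.04, 10.02 and 10.28 by ILMN_2789692. These groups overlapped, and the log2 fold change was -0.01 (95% confidence interval -0.24 to 0.22, adjusted p = 0.974 from limma), with -0.14 (adjusted p = 0.453) by its other tested probe.

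For the remaining tested ligands the groups overlapped. Wnt4, which directs ovarian development, was at -0.02 and -0.03 by its 2 tested probes (adjusted p 0.917 and 0.881), and its better measured probe gave an interval of -0.23 to 0.17. Wnt5a, the main ligand of the branches that do not use beta-catenin, was at 0.01 and 0.07 (adjusted p 0.973 and 0.873), and the related Wnt5b at 0.20 (adjusted p = 0.578). Wnt9b had log2 signals of 6.002, 6.04 and 5.999 in hSRY-OFF and of 5.79, 6.08 and 5.19 in hSRY-ON by ILMN_1231288, a difference of -0.33 (SE 0.21, adjusted p = 0.419 from limma) that became -0.079 when hSRY-ON array 3 was left out and -0.52 when array 2 was. Its other probe was at 0.12. Wnt2b at -0.30 (adjusted p = 0.427) and Wnt3 at 0.22 (95% confidence interval -0.46 to 0.90, adjusted p = 0.704) were dim and imprecise. Wnt16 was detected by 1 of its 3 probes, on a single hSRY-ON array, and was not tested, although the 3 hSRY-ON signals of that probe lay above those of hSRY-OFF.

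The LRP co-receptors were near background. Lrp5 (ILMN_2942097) had log2 signals of 6.01, 6.39 and 5.97 in hSRY-OFF and of 6.10, 6.09 and 4.99 in hSRY-ON. The low mean of hSRY-ON rested on array 3, and the log2 fold change of -0.40 (SE 0.30, 95% confidence interval -1.11 to 0.32, adjusted p = 0.499 from limma) became -0.03 without it and -0.26 without hSRY-OFF array 2. Lrp6, the co-receptor more widely needed in development, was detected on 1 array of each group and was not tested.

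Of the secreted antagonists, none passed the threshold by limma (1 probe, of Dkkl1, had an unadjusted p under 0.05), and 6 of their 8 tested probes had log2 fold changes above 0. Of the 8 tested probes, 5 belonged to Dkk3 and Dkkl1, and none to Dkk1, Dkk2 or Dkk4. Of the 6 above 0, Sfrp1, Sfrp2, Wif1 and Dkkl1 ILMN_2752580 were below 0 when 1 or another array was left out. Dkk3 ILMN_2852957 stayed above 0, and Dkk3 ILMN_2746556 was not followed in this way. The latter had overlapping log2 signals of 10.58, 10.28 and 10.45 in hSRY-OFF and of 10.54, 10.29 and 10.74 in hSRY-ON. Its higher mean in hSRY-ON rested on array 3. Sfrp1, a decoy that binds Wnts through a Frizzled-like domain, had log2 signals of 10.27, 10.27 and 10.31 in hSRY-OFF and of 10.24, 10.41 and 10.29 in hSRY-ON. It was at 0.03 (95% confidence interval -0.16 to 0.22, adjusted p = 0.882 from limma). Sfrp2 was at 0.05 (SE 0.18, adjusted p = 0.896), and Wif1, which binds Wnts by another domain, at 0.03 (95% confidence interval -0.62 to 0.68, adjusted p = 0.969). Wif1 varied within both groups, with log2 signals of 6.34, 5.71 and 6.41 against 6.45, 5.63 and 6.46, so that array 2 was the lowest in each.

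The Dkk family covers Dkk1, Dkk2 and Dkk4, which bind the LRP co-receptors, the divergent Dkk3, and Dkkl1, a relative of Dkk3. Dkk3 was at 10.79, 10.64 and 10.90 in hSRY-OFF and at 10.88, 10.85 and 11.06 in hSRY-ON by ILMN_2852957, a difference of 0.16 (SE 0.10, 95% confidence interval -0.08 to 0.40, adjusted p = 0.425 from limma). Without hSRY-OFF array 2 the difference was 0.0886, and without hSRY-ON array 3 it was 0.0936. Its other probes were at 0.09 and -0.00. Dkk1 was detected on 2 hSRY-OFF arrays and on no hSRY-ON array (ILMN_2747037, log2 signals of 4.88, 5.67 and 5.86 against 4.54, 4.74 and 4.88) and was not tested. The groups overlapped through the first hSRY-OFF array, on which it was not detected either.

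The 3 probes of Dkkl1 differed in sign. ILMN_2627081 had log2 signals of 8.64, 8.76 and 8.78 in hSRY-OFF and of 8.42, 8.18 and 8.45 in hSRY-ON. The groups did not overlap, and the log2 fold change of -0.37 (SE 0.10, 95% confidence interval -0.61 to -0.14) had an unadjusted p of 0.00702 and did not pass (adjusted p = 0.09995 from limma). ILMN_2752580 had 6.62, 6.78 and 7.04 against 6.54, 7.30 and 7.01, overlapping, and differed by 0.14 on the log2 scale (SE 0.20, adjusted p = 0.745). The third, ILMN_2823612, was detected on 2 hSRY-OFF arrays alone and was not tested, with 5.54, 5.65 and 5.37 against 5.07, 5.36 and 5.28, lower on every hSRY-ON array.

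The readout genes were Axin2, Lef1 and Tcf7, which are themselves induced by beta-catenin. Axin2 (ILMN_2896314) had log2 signals of 10.01, 9.98 and 9.88 in hSRY-OFF and of 9.62, 9.78 and 9.65 in hSRY-ON. All hSRY-ON arrays were below all hSRY-OFF arrays, but the log2 fold change of -0.28 (SE 0.08, 95% confidence interval -0.48 to -0.08, 1.21-fold) did not pass (adjusted p = 0.129 from limma). It passed with no background correction (adjusted p = 0.0410) and under no other alternative. Lef1 (ILMN_2648475) had 5.76, 5.66 and 5.56 against 6.10, 4.84 and 5.18. It was detected on 3 hSRY-OFF arrays and 1 hSRY-ON array, the groups overlapped, and the log2 fold change was -0.28 (95% confidence interval -0.98 to 0.41, adjusted p = 0.629 from limma). The value was -0.65 without hSRY-ON array 1, -0.19 without array 3 and -0.018 without array 2, none past the threshold. Tcf7 was detected by 1 of its 2 probes on a single hSRY-OFF array and was not tested.

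**Figure D3:**
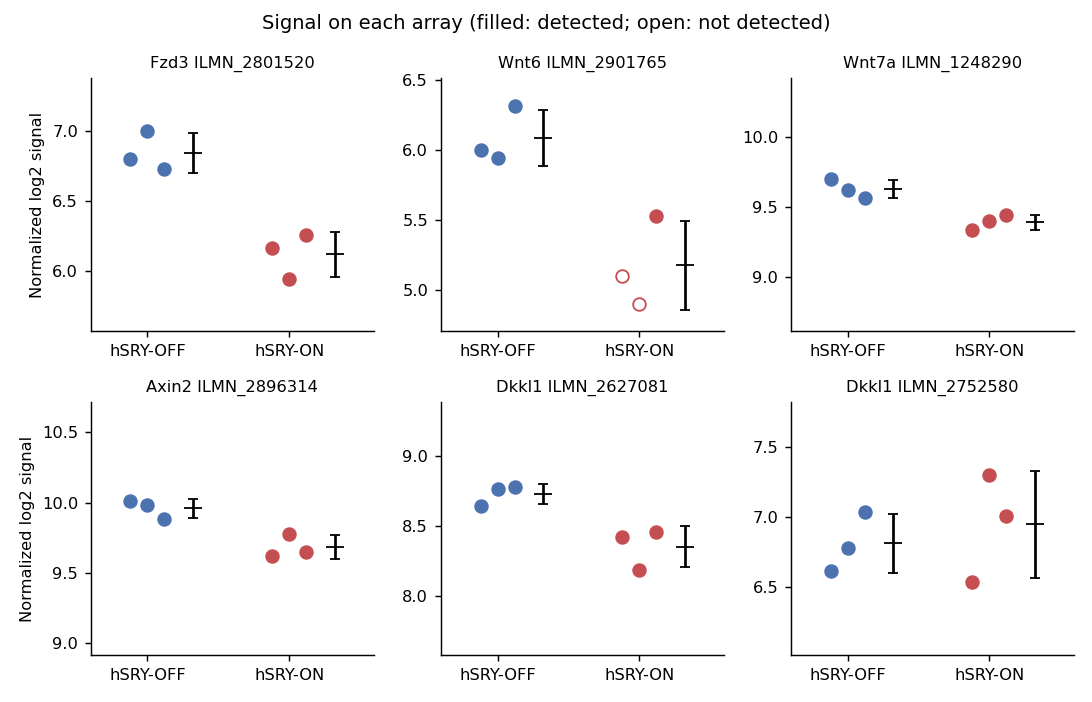
Normalized log2 signal (y axis, a range set for each panel) of 6 member probes on each array of hSRY-OFF and hSRY-ON, filled where the probe was detected and open where it was not, with the mean and SD of the 3 arrays beside the points. The groups are apart for Fzd3, Wnt6, Wnt7a, Axin2 and Dkkl1 ILMN_2627081, and overlap for Dkkl1 ILMN_2752580.

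Because SRY binds DNA through an HMG domain, as TCF and LEF factors do, the 250 bases before the RefSeq start of the member genes were searched for the letters AACAAT (the SRY and SOX core) and CTTTG (the TCF and LEF core) on both strands, where they read ATTGTT and CAAAG. The motifs do not overlap one another. Of the 43 member genes, 29 had such a window. AACAAT occurred in 2 of 36 member windows (5.56%), of Dkkl1 and Fzd10, against 9.42% of 32851 windows of all genes. CTTTG occurred in 17 of 36 (47.2%), against 48.6%. Shown are the windows, from RefSeq on GRCm38.p6 and 5′ to 3′ on the strand of the gene, of the members whose groups did not overlap at an unadjusted p under 0.05 and that had a window. They lie at chr11:108920099-108920348 on the plus strand for Axin2, chr6:91411354-91411603 on the minus strand for Wnt7a, chr1:74771642-74771891 on the plus strand for Wnt6 and chr7:45211884-45212133 on the minus strand for Dkkl1. Capitals mark AACAAT, which occurs once in that of Dkkl1, at position -116 from the start, and CTTTG occurs in none of them. A match is a stretch of letters and says nothing of binding.
Axin2: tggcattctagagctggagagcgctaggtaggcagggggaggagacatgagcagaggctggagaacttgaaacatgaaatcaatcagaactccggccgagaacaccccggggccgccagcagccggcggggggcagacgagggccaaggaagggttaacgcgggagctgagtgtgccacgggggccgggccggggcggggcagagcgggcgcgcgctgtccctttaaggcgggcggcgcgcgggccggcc
Wnt7a: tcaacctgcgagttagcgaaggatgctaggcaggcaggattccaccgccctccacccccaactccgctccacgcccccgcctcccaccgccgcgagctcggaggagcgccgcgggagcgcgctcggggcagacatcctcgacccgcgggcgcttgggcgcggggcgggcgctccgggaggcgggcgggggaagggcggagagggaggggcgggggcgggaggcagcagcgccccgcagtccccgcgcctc
Wnt6: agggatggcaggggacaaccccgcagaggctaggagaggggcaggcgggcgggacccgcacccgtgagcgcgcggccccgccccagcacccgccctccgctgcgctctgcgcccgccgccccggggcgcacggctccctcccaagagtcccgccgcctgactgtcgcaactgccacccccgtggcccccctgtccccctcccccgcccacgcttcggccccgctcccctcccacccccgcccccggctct
Dkkl1: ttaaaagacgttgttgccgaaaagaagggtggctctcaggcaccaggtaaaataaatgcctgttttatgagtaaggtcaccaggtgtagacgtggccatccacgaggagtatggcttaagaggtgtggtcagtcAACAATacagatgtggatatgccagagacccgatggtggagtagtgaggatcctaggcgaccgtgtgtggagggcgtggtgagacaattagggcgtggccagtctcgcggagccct

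The rest of the pathway was read from 4 further lists, with 1 probe per gene. In the list of secretion and surface modulators 13 of 25 genes were tested and 1 rose, Notum, a secreted enzyme that inactivates Wnts by removing their lipid. Notum had log2 signals of 5.87, 5.94 and 5.89 in hSRY-OFF and of 6.45, 6.55 and 6.32 in hSRY-ON. The groups did not overlap, and the log2 fold change was 0.54 (SE 0.09, adjusted p = 0.0348 from limma). The fold was 0.18 with no background correction (adjusted p = 0.101) and 0.30 with normexp on the signals (adjusted p = 0.0463). The call was also lost with no filter (adjusted p = 0.0573), a trended and robust prior (0.0775), the replicate block (0.105) and when any array but hSRY-ON 3 was left out (0.0811 to 0.115). The list's median was 0.20, with 9 genes above 0 and 4 below. At an unadjusted p under 0.05 by limma 5 were higher (Notum, Ndp, Kremen2, Reck and Rspo2) and 1 was lower (Wls). Kremen2 was at 0.50 (adjusted p = 0.145) and Rspo2 at 0.33 (adjusted p = 0.206), and for both the groups did not overlap. Norrin (Ndp), a ligand of Fzd4 and chosen here after its values were seen, was detected on no hSRY-OFF array and on all 3 hSRY-ON arrays, and was at least 1.19-fold higher in hSRY-ON. That bound compares the hSRY-ON mean with the lowest signal of detected probes on each hSRY-OFF array, or the probe's own where that is higher. Ndp entered the test through hSRY-ON alone and did not pass (adjusted p = 0.118). Wls (Gpr177 in the deposited table), which carries Wnts to the cell surface, was at -0.30 (adjusted p = 0.175), and Reck, part of the endothelial receptor complex for Wnt7a, at 0.35 (adjusted p = 0.145), both also chosen after their values were seen.

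Among 17 other target genes of beta-catenin 13 were tested, 1 rose (Notum, which is on both lists) and 1 fell, Cd44, a hyaluronan receptor. Cd44 had log2 signals of 7.16, 6.81 and 6.69 in hSRY-OFF and of 6.14, 6.11 and 6.10 in hSRY-ON by ILMN_3114585. The groups did not overlap, the log2 fold change was -0.77 (SE 0.13, adjusted p = 0.0368 from limma), and its 5 other probes were below background on all arrays. Its call was lost without any 1 of the 6 arrays (adjusted p 0.0581 to 0.113), with no filter (0.0573) and with the replicate block (0.103). The log2 fold change was -0.29 with no background correction and -0.46 with normexp on the signals, both past the threshold. The median of the list was -0.07, with 6 genes above 0 and 7 below.

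No gene passed the threshold by limma in the list of beta-catenin signal transduction (25 of 32 genes tested, 5 higher and 3 lower at an unadjusted p under 0.05, median 0.07) or in that of noncanonical receptors and planar polarity (10 of 18 tested, 2 higher and 1 lower at an unadjusted p under 0.05, median 0.06). The smallest p-values of the first were those of Nkd2, an inhibitor that binds Dishevelled, at 0.43 (SE 0.08, adjusted p = 0.0503), and Tle3, a Groucho co-repressor of TCF factors, at 0.56 (SE 0.16, adjusted p = 0.119). Nkd2 had log2 signals of 8.39, 8.38 and 8.398 in hSRY-OFF and of 8.94, 8.76 and 8.77 in hSRY-ON. In the second they were those of Dact2 at -0.42 (adjusted p = 0.0917) and Dact1 at 0.37 (adjusted p = 0.109), which both code for proteins that bind Dishevelled.

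**Figure D4:**
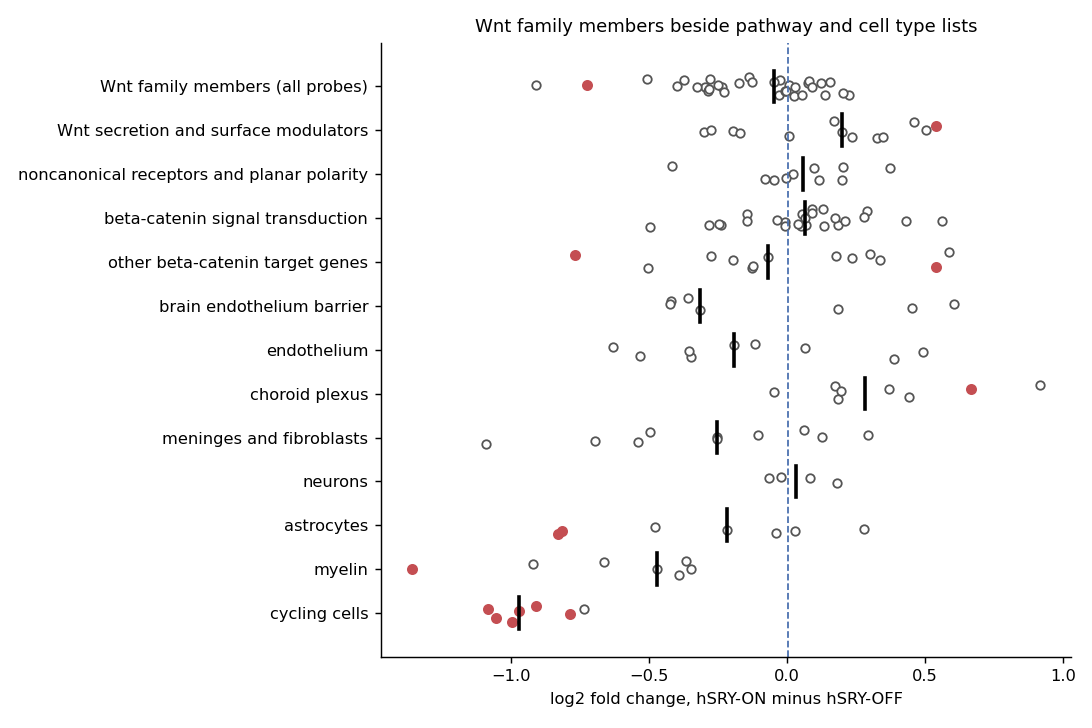
Log2 fold change, hSRY-ON minus hSRY-OFF (x axis), of the tested member probes and of 1 probe per tested gene in each pathway or cell type list (y axis). Red points are those that passed an adjusted p under 0.05, and a black bar is the median of each list. The dashed line is the median of all tested probes (0.0048). Members center near 0 with a median of -0.05, whereas the list of cycling cells has a median of -0.97 and 6 red points.

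Markers of cell types that make or receive Wnts, and of dividing cells, were read from the same fit. Markers of cycling cells fell, with 6 of 7 tested called and a summed normalized signal of 3747 to 4326 in hSRY-OFF against 1784 to 2564 in hSRY-ON. Myelin markers had a median log2 fold change of -0.47, with 1 of 7 called (Mobp, lower), and summed to 30856 to 39011 against 23624 to 24365. Of the astrocyte markers 2 of 7 fell, Aqp4 and Gfap (1 higher and 3 lower at an unadjusted p under 0.05), while the sums overlapped. Meningeal and fibroblast markers had a median of -0.25, with 0 of 10 called by limma (1 higher and 5 lower at an unadjusted p under 0.05), and sums of 21808 to 22877 against 19074 to 21570, whereas Col1a2 was below background.

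Choroid plexus markers, from an epithelium next to the embryonic Wnt source of the cortical hem, had a median of 0.28 with 1 of 8 called (Aqp1, higher), and summed to 16317 to 19318 in hSRY-OFF against 19712 to 24720 in hSRY-ON. Within this list Kl was detected on no hSRY-OFF array and on all 3 hSRY-ON arrays, at least 1.70-fold higher in hSRY-ON. It too entered the test through hSRY-ON alone and did not pass (adjusted p = 0.0910). Endothelial markers had a median of -0.19 with 0 of 9 called by limma (2 higher and 4 lower at an unadjusted p under 0.05), and sums of 6371 to 6643 against 5696 to 6468. Barrier markers of brain endothelium had a median of -0.31 with 0 of 7 called (2 higher and 3 lower at an unadjusted p under 0.05), and sums of 9659 to 9923 against 8936 to 9614, with Abcb1a, Abcg2 and Foxf2 below background. The smallest p-values of that list were those of the transporter Slc22a8 at 0.45 (adjusted p = 0.0513) and the transcription factor Foxq1 at -0.42 (adjusted p = 0.0789). Neuronal markers, which identify the tissue as brain, had a median of 0.03 with 0 of 4 called (0 at an unadjusted p under 0.05). The part of these markers in the values of Fzd3, Wnt6, Axin2, Notum and Cd44 was not tested.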

How the data were processed

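The authors deposited a mean bead intensity for each probe and array on a linear scale, each with a detection p-value that ranks it among the negative controls. TCC, an R package, is named without settings in the study's methods, and limma in the submitters' processing notes. A genome build was not given in the sources used here. Groups and replicate numbers were taken from the sample labels (3 arrays per group, all 6 used), and the precision is limited by this number of arrays.

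The limma package (3.58.1, R 4.3.3) inferred the negative controls' mean and SD from the detection p-values, whose steps give 798 controls. Intensities were then corrected by normexp (offset 16), quantile normalized and put on the log2 scale, which widens the spread at low signal. Tested probes, those with a detection p under 0.05 on 3 or more arrays, were fitted with lmFit and eBayes (two-sided, group only), with Benjamini-Hochberg adjustment over all 14215. Probes of 1 gene were tested separately. Every adjusted p is from this fit unless another setting is named. For lists, the probe with the highest mean stood for a gene, and sums are of unlogged normalized signals.

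Members and lists were chosen with earlier results of these data known. Named were called probes, the 3 probes with the smallest p and the one with the highest mean in each family, Axin2, Lef1 and Tcf7, any probe detected on all 3 arrays of 1 group and none of the other, and in each pathway list the called probes or the 2 with the smallest p. Further members and genes were named to complete a family. Promoter windows were read from RefSeq (GRCm38.p6). On simulated data in which 200 probes differed by a log2 fold change of 1, 196 of them were tested, 118 were recovered (60.2%) and 5 further calls were false. Alternatives changed the background correction, normalization, filter, prior, weights, replicate block and threshold, and left out each array. Plots were made in Python 3.11.15 (matplotlib 3.10.9).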

Additional observations from a re-analysis of the deposited data

How the results depend on the processing

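The number of member probes called, all of them lower, was 1 as reported and 4 with no background correction (Axin2, Dkkl1, Fzd3 and Wnt6). It was 3 with a trended and robust prior or at an adjusted p under 0.10 (Dkkl1, Fzd3 and Wnt6), and 2 with normexp on the signals (offset 50), median scaling, cyclic loess or array quality weights (Fzd3 and Wnt6). It was 0 with no filter on dim probes (10 of 61 at an unadjusted p under 0.05, Fzd3 adjusted p = 0.0548 by limma) and 0 with detection p under 0.01 on all 6 arrays (5 of 17, Fzd3 not tested). Without 1 array it ranged from 0 to 2, with 4 to 9 at an unadjusted p under 0.05. Over all probes, 308 calls became 1317 with no background correction, 860 with normexp on the signals, 123 with no filter, 705 with the strict filter, 1447 with the trended and robust prior, 480 with array weights, 999 at an adjusted p under 0.10 and 0 to 417 without 1 array. The cause of these shifts was not tested. Same-numbered arrays of the groups deviated together weakly (correlations 0.0251 to 0.0404, each array highest with its own number), and the labels state no pairing. With the number as a replicate block, limma made 0 member calls (10 at an unadjusted p under 0.05; Fzd3 adjusted p = 0.110) and 0 calls over all probes (2906 at an unadjusted p under 0.05). The members' median of -0.05 ranged from -0.147 to -0.063 without 1 array, and was -0.0144 with no filter (61 probes) and -0.0275 with no background correction. The difference in detected member probes was -2.67 at a detection p under 0.01 and ranged from -5.33 to -2.33 without 1 array. Of 259 values of the 18 probes followed through the alternatives, 10 changed sign, none past the threshold. Wif1 was at -0.0186 with array weights and ranged from -0.192 to 0.304 without 1 array (below 0 without hSRY-OFF 2, hSRY-ON 1 or hSRY-ON 3). Without 1 array, Wnt7b (ILMN_2789692) ranged from -0.0919 to 0.0385 (above 0 without hSRY-OFF 2, hSRY-ON 1 or hSRY-ON 2), Sfrp2 from -0.150 to 0.127 (over the 3 fits in which it could be tested, below 0 without hSRY-OFF 3), Sfrp1 from -0.0215 to 0.0633 and Dkkl1 (ILMN_2752580) from -0.0371 to 0.341 (both below 0 without hSRY-ON 2). Dim probes such as Fzd3 and Wnt6 are limited by their small signal over background, and genes below background could not be compared.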
